A study of Mus musculus with 56 samples.

Results

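The liver transcriptome of mice given nilotinib at 10 mg/kg was compared with that of mice given vehicle. Nilotinib is a tyrosine kinase inhibitor of the second generation that blocks the BCR-ABL1 kinase of chronic myeloid leukemia. The comparison was defined by the treatment labels and holds 8 nilotinib and 8 control mice, 16 of the 56 mice sequenced, across all 45513 genes listed for each mouse. All were female APOE*3Leiden.CETP mice on a Western-type diet with 15% cacao butter and 0.15% cholesterol. Their stated age of 9 to 14 weeks is shorter than the treatment, so it is not their age when liver was taken. Treatment began after a run-in on the diet. The nilotinib mice were gavaged with nilotinib in 5% carboxymethyl cellulose, and the control mice with the vehicle only. Both groups also had a second daily gavage of vehicle, and liver was taken after 16 weeks of treatment. The other groups were given ponatinib (3 mg/kg or 10 mg/kg), the higher nilotinib dose of 30 mg/kg, imatinib at 150 mg/kg, or L-NAME in drinking water. The mice had no leukemia and carried human transgenes (APOE*3Leiden, with APOC1, and CETP) that the mouse annotation does not hold, so the liver genes are those of a dyslipidemia model without the drug's leukemic target.

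The liver makes most plasma lipoproteins and clotting factors. Its cholesterol synthesis is set by SREBP2, a transcription factor released from the endoplasmic reticulum when sterols are low, and its fatty acid synthesis by the related SREBP1c, which responds to insulin. Hepatocytes are zoned along the lobule, with gluconeogenesis and urea synthesis strongest around the portal vein. Nilotinib binds ABL1 and ABL2 and also KIT, the platelet-derived growth factor receptors, CSF1R and the discoidin domain receptors.

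Sequencing depth differed between the groups. Between 7696730 and 17996732 reads were counted on genes in control mice and between 5342379 and 7895539 in nilotinib mice. The liver label held in both groups, as Alb, the most abundant plasma protein, stood between 61000 and 112000 CPM in control mice and between 58400 and 85600 CPM in nilotinib mice. CPM, the level used throughout, is the read count of a gene scaled to a common library size by TMM. Reads that overlap no annotated exon were set against these reads plus those counted on genes, with ambiguous reads left out. Their share was 7.77 to 8.94% in control mice and 9.40 to 11.3% in nilotinib mice. Every nilotinib mouse was above every control mouse, and the means, 10.0% ± 0.70 and 8.22% ± 0.43 (SD, n = 8 each), differed by 1.80 percentage points (exact permutation test, 2-sided, p = 0.000155, the smallest p that 8 against 8 allow). Since the groups did not overlap in this share, it cannot be told apart from the treatment, and no gene passed an adjusted p of 0.05 when it was a covariate. The part of this share in the gene changes below was not tested further.

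A limited number of genes differed between nilotinib 10 mg/kg and control, by modest amounts. Of the 14090 genes tested, 802 (5.69%) had an unadjusted p-value below 0.01, the study's cut-off, where 141 pass by chance. They divided into 313 higher (2.22%) and 489 lower (3.47%) with nilotinib. At a Benjamini-Hochberg adjusted p below 0.05, which was required here for a gene to be called risen or fallen, 174 genes (1.23%) were left, 56 risen (0.397%) and 118 fallen (0.837%). Scaling by RLE size factors gave 75 risen and 96 fallen genes, so the balance of directions moved with the scaling. The median log2 fold change was 0.60 for the risen and -0.65 for the fallen genes, and 0.01 for all genes. In 1 risen and 15 fallen genes the level differed more than a doubling (absolute log2 fold change over 1). Every nilotinib mouse was above every control mouse for 13 of the 56 risen genes and below for 41 of the 118 fallen genes. Among all genes tested, such separation upward was seen in 21 genes (0.149%) and downward in 70 (0.497%). The number of calls depended on single mice and fell to 48 without control mouse 7 (mice are numbered within a group in the order of their records), so the genes below are given with the number of fits, of the 16 that each left out 1 mouse, in which they were still called.

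**Figure D1:**
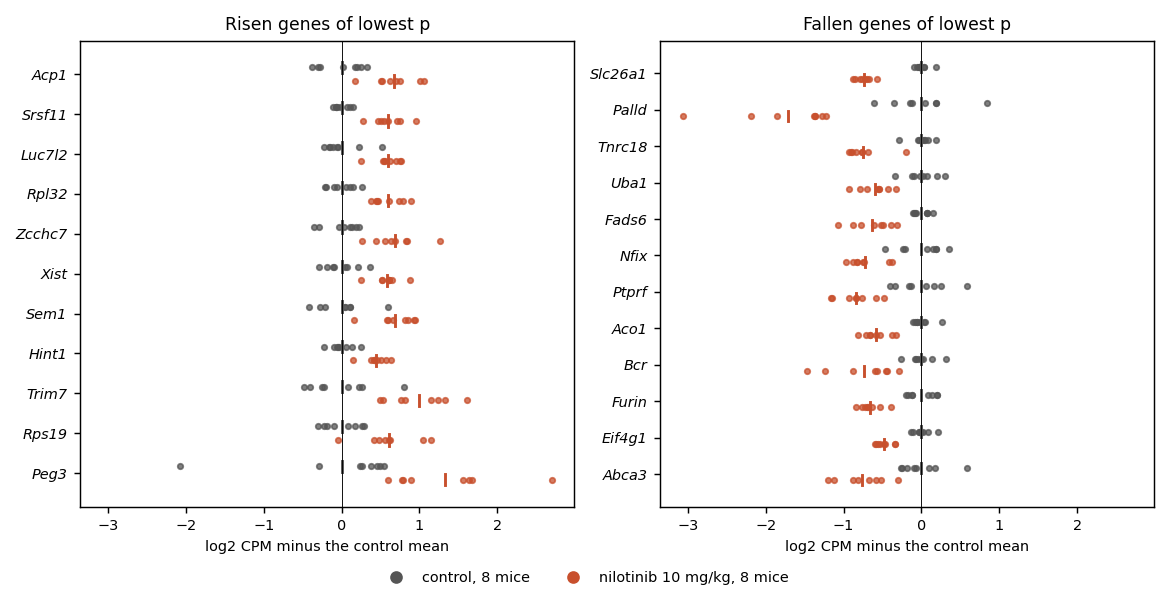
Risen (left) and fallen (right) genes of lowest p, with each mouse as a point and the group mean as a tick. The x axis is log2 CPM minus the mean of the control mice. Palld shows the widest gap of the fallen genes, with all 8 nilotinib mice below all 8 control mice, while for Sem1 and Tnrc18 the groups overlap.

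The fallen genes of lowest p were a transporter and a cytoskeletal gene. Slc26a1, the sulfate and oxalate exchanger of the hepatocyte membrane, was at 221, 232 and 268 CPM (lowest, median and highest of 8 mice) in control mice and at 128, 141 and 159 CPM in nilotinib mice. The groups did not overlap, and the log2 fold change was -0.74 ± 0.13 (SE; edgeR adjusted p = 0.0079; called in 16 of 16 fits). Palld (palladin, an actin-binding scaffold; chr8:61511433-61902690 on GRCm38) was at 20.7, 30.7 and 56.4 CPM in control mice and at 3.77, 12.2 and 13.5 CPM in nilotinib mice. Palld had the largest fall among the genes chosen by rule, with no overlap between the groups and a log2 fold change of -1.67 ± 0.30 (adjusted p = 0.0079; 16 of 16 fits). These mice also had lower Ptprf, a receptor tyrosine phosphatase known to act on the insulin receptor, at 109 to 174 CPM with a median of 135, against 183 to 364 CPM with a median of 237 in control mice. Again no nilotinib mouse reached the lowest control mouse (log2 fold change -0.86 ± 0.17, adjusted p = 0.0098; 16 of 16 fits). Bcr, the mouse gene whose human counterpart is fused to ABL1 in chronic myeloid leukemia, fell from a median of 45.0 CPM (38.0 to 57.0) to 30.5 CPM (16.4 to 37.5) without overlap (log2 fold change -0.70 ± 0.14, adjusted p = 0.0098; 16 of 16 fits). These mice carry no such fusion, and Bcr is named only for its place among the 12 lowest p.

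The other fallen genes of lowest p were of mixed function. Furin, the convertase that cleaves proproteins in the Golgi, was at 259, 294 and 342 CPM in control mice and at 166, 183 and 226 CPM with nilotinib, without overlap (log2 fold change -0.66 ± 0.13). Aco1, an iron-sensing aconitase of the cytosol, was at 269, 283 and 349 CPM in control mice and at 166, 189 and 232 CPM with nilotinib, also without overlap (-0.58 ± 0.12 on the log2 scale). Eif4g1, the scaffold of the cap-binding complex, fell by 0.49 on the log2 scale (SE 0.10), from 504 to 638 CPM to 365 to 436 CPM. In all of these the highest nilotinib mouse was below the lowest control mouse, with an edgeR adjusted p of 0.0098 each and calls in 16 of 16 fits. Nfix, a transcription factor of the nuclear factor I family, overlapped between the groups, with 6 of 8 nilotinib mice below every control mouse (log2 fold change -0.73 ± 0.15). Uba1, the main ubiquitin-activating enzyme, had 7 such mice (-0.60 ± 0.12), as had Tnrc18 (-0.73 ± 0.14). Fads6, a fatty acid desaturase family member, fell by 0.62 (SE 0.12) and Abca3, a phospholipid transporter, by 0.76 (SE 0.15) on the log2 scale, both in 8 of 8 mice below every control mouse.

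Beyond Palld, the largest falls among genes with an established symbol were in Sntb1, Acss3, Armh3 and Ugt3a1. Without that condition, a pseudogene (-2.29 ± 0.59) and a gene with no symbol in the annotation (-1.69 ± 0.42) fell further than Palld, the pseudogene through 1 control mouse at 370 CPM. Ugt3a1, a UDP-glycosyltransferase that conjugates small molecules, was at 37.0, 48.7 and 59.6 CPM in control mice and at 9.70, 19.3 and 25.6 CPM with nilotinib, a log2 fold change of -1.37 ± 0.28 (adjusted p = 0.011; 16 of 16 fits). Acss3, a mitochondrial acyl-CoA synthetase, was at 14.3, 16.8 and 26.6 CPM in control mice and at 3.44, 6.82 and 8.05 CPM with nilotinib (-1.47 ± 0.34, adjusted p = 0.020; 15 of 16 fits, adjusted p = 0.056 without control mouse 7). The groups did not overlap for either gene. Sntb1 (syntrophin beta 1, a membrane scaffold) fell by 1.58 (SE 0.39) and was called in 10 of 16 fits, with an adjusted p of 0.086 without control mouse 7. Armh3 fell by 1.41 (SE 0.34), to as little as 0.539 CPM in a nilotinib mouse, and was called in 13 of 16 fits (adjusted p = 0.058 without control mouse 7).

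The risen genes of lowest p were also of mixed function. Acp1, a small tyrosine phosphatase, was at 20.5, 28.4 and 33.3 CPM in control mice and at 30.0, 42.2 and 55.4 CPM with nilotinib. Its 7 highest nilotinib mice were above every control mouse (log2 fold change 0.67 ± 0.14, adjusted p = 0.0098; 16 of 16 fits). Srsf11, a splicing factor rich in serine and arginine, was at 65.8, 68.9 and 78.4 CPM in control mice and at 86.0, 105 and 138 CPM with nilotinib. There was no overlap, and the log2 fold change was 0.61 ± 0.12 (adjusted p = 0.0098; 16 of 16 fits). Luc7l2, which binds the 5′ splice site with the U1 particle, rose by 0.58 (SE 0.12), Zcchc7, part of a nuclear RNA surveillance complex, by 0.71 (SE 0.15) and Xist, the long RNA of the inactive X chromosome, by 0.58 (SE 0.14). Zcchc7 did not overlap between the groups, whereas Luc7l2 and Xist had 7 of 8 nilotinib mice above every control mouse, and Xist was called in 13 of 16 fits (adjusted p = 0.056 without control mouse 7). Other risen genes known from splicing, chosen after their values were seen and not from a list, were Srsf6 (0.39 ± 0.10), Hnrnpdl (0.41 ± 0.11), Arglu1 (0.49 ± 0.13) and Paxbp1 (0.72 ± 0.18). In the opposite direction, Prpf8, the core of the spliceosome, fell by 0.58 (SE 0.14) and Hnrnpul1 by 0.72 (SE 0.16).

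Peg3 had the largest rise. Peg3, an imprinted zinc finger gene expressed from the paternal allele, was at 1.09, 5.75 and 6.70 CPM in control mice and at 6.99, 11.0 and 30.0 CPM with nilotinib. The groups did not overlap, although the highest nilotinib mouse, mouse 1, stood apart, and without it the adjusted p was 0.091 (log2 fold change with all mice 1.32 ± 0.32, adjusted p = 0.025; 14 of 16 fits). Trim7, a ubiquitin ligase that binds glycogenin, was at 7.11, 9.49 and 17.3 CPM in control mice and at 14.0, 19.7 and 30.3 CPM with nilotinib. Here 5 of 8 nilotinib mice were above every control mouse (0.97 ± 0.23, adjusted p = 0.023; 11 of 16 fits, adjusted p = 0.057 without nilotinib mouse 6). Hint1, a nucleotide hydrolase, rose by 0.44 (SE 0.10) and Sem1, a small proteasome subunit, by 0.68 (SE 0.16), in 14 and 15 of 16 fits (adjusted p = 0.079 and 0.066 without control mouse 7). The next largest rises were in Brms1 (0.81 ± 0.22) and Egfl7, an endothelial secreted factor (0.77 ± 0.21), but these were called in 4 and 1 of 16 fits, with an adjusted p of 0.11 for each without nilotinib mouse 1.

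Genes of the cytosolic ribosome were higher with nilotinib. Of 74 ribosomal protein genes tested (82 listed), 26 had an unadjusted p below 0.01, all higher, and 8 rose by the adjusted p, against 2.22% and 0.397% of all genes. The median of the 74 log2 fold changes was 0.38, beside 0.01 over all genes. Rpl32 was at 55.8, 64.4 and 77.1 CPM in control mice and at 83.6, 93.5 and 119 CPM with nilotinib, without overlap (log2 fold change 0.60 ± 0.13, adjusted p = 0.012; 16 of 16 fits). Rpl4 was at 351, 363 and 397 CPM in control mice and at 426, 466 and 510 CPM with nilotinib, likewise without overlap (0.35 ± 0.09, adjusted p = 0.030; 10 of 16 fits, adjusted p = 0.085 without control mouse 7). Both belong to the large subunit. Rps15, a subunit of the small particle, also separated the groups, at 80.5 to 101 CPM against 106 to 165 CPM (0.52 ± 0.13, adjusted p = 0.032; 9 of 16 fits, adjusted p = 0.082 without nilotinib mouse 8). Other risen members were Rps19 (0.63 ± 0.15), Rpl30 (0.73 ± 0.18), Rps20 (0.62 ± 0.16) and Rps18 (0.55 ± 0.14), each overlapping between the groups. They were called in 4 to 11 of 16 fits, with the highest adjusted p, between 0.073 and 0.088, without control mouse 5 or 7. Ribosomal protein genes have many near-identical processed copies and reads with more than 1 alignment were not counted, so their counts are uncertain. Of 41 translation initiation factors, 1 was higher and 3 were lower at p below 0.01 (9.76%, beside 5.69% of all genes). The fallen ones were Eif4g1 and Eif4ebp2, a repressor of cap-dependent translation (-1.11 ± 0.29, adjusted p = 0.036; 7 of 16 fits, adjusted p = 0.12 without control mouse 7).

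Nuclear genes of the respiratory chain were also higher as a group, though few passed the adjusted p. Of 38 genes placed in complex I by their symbols, 7 were higher and 1 lower at p below 0.01. Of 47 subunits and assembly factors of complexes II to V, 16 were higher and 1 lower. The median log2 fold changes were 0.29 and 0.31. Counted in either direction, the complex I number was 8, or 4 without nilotinib mouse 8 and 13 without nilotinib mouse 3. That of complexes II to V was 17, or 9 without nilotinib mouse 8 and 11 without control mouse 1, 6 or 7. Ndufa4, counted with complex I by its symbol only, rose from 123, 136 and 164 CPM to 160, 179 and 235 CPM (0.44 ± 0.12, adjusted p = 0.044; 4 of 16 fits, adjusted p = 0.11 without nilotinib mouse 8). Atp5e, a small subunit of ATP synthase, rose from 59.7, 69.5 and 87.8 CPM to 81.2, 107 and 138 CPM (0.60 ± 0.15, adjusted p = 0.036; 5 of 16 fits, adjusted p = 0.093 without control mouse 7). The ranges overlapped for both genes. Sdha, the flavoprotein subunit of complex II, went the other way, from 539, 617 and 670 CPM to 418, 460 and 485 CPM without overlap (-0.41 ± 0.11, adjusted p = 0.046; 4 of 16 fits, adjusted p = 0.10 without control mouse 7). The 10 genes of mitochondrial DNA tested had a median log2 fold change of -0.02, and none was past a p of 0.01. Of 75 mitochondrial ribosomal proteins, 4 were higher and 0 lower at p below 0.01, which is 5.33% of the list beside 5.69% of all genes in either direction. Of these, Mrps26 (0.74 ± 0.19) and Mrpl18 (0.46 ± 0.12) rose, in 5 and 4 of 16 fits, with adjusted p of 0.12 without nilotinib mouse 1 and 0.11 without control mouse 7.

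These groups are made up of short genes, and the direction of change moved with gene length. Among protein-coding genes, the merged exons of the 46 risen genes had a median length of 3292.5 bases and those of the 107 fallen genes 6409 bases, against 4457 bases for all 12564 tested. Genes were split by exon length into 5 bins of like size. In the bin of shortest genes (243 to 2520 bases) the median log2 fold change was 0.16, with 108 genes higher and 25 lower at p below 0.01. In the bin of longest genes (7590 to 123179 bases) it was -0.06, with 37 genes higher and 123 lower. Per mouse, the median log2 level of the shortest bin minus that of the longest bin, relative to the control mean, ranged from -0.18 to 0.19 in control mice and from 0.018 to 0.36 in nilotinib mice, so the groups overlapped. With this length trend taken out of each mouse, an alternative added after the data had been seen, the adjusted p was passed by 119 genes, 60 risen and 59 fallen, of which 101 were among the 174. In that fit, 23 of the 74 ribosomal protein genes had a p below 0.01, with a median log2 fold change of 0.35, and 15 of 47 genes of complexes II to V and 6 of 38 of complex I, with a median of 0.25 each. With the share of reads outside genes as a covariate these counts were 18, 3 and 0. RNA quality was not given in the labels, and its part in the length pattern was not tested.

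**Figure D2:**
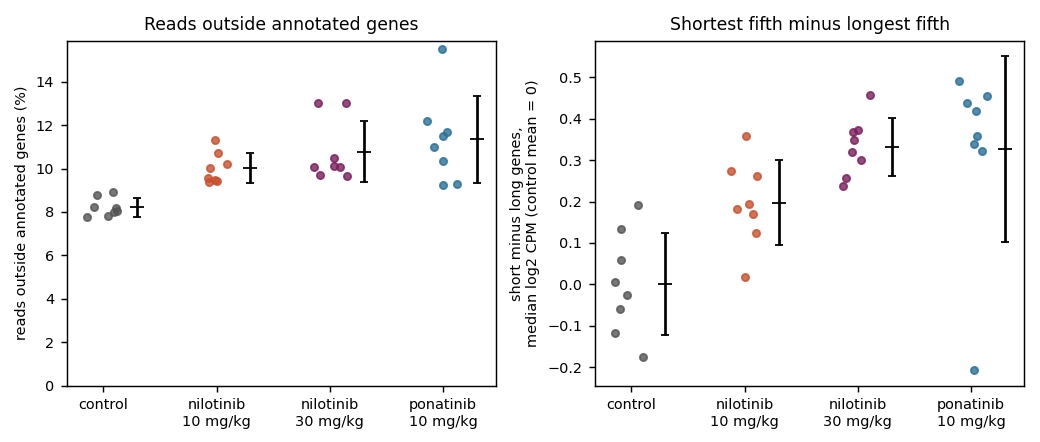
Reads outside annotated genes, as a percentage of these plus the reads counted on genes (left). Difference between the bins of shortest and longest genes (right, log2 CPM relative to the control mean). Each point is a mouse, with the mean and SD beside the points. The control mice lie between 7.77 and 8.94% on the left, below all nilotinib 10 mg/kg mice, while on the right both groups overlap.

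Genes of cholesterol synthesis tended downward. Of the 30 genes of this list tested, 4 were lower and 0 higher at p below 0.01, and 2 fell by the adjusted p, against 3.47% and 0.837% of all genes. The median log2 fold change was -0.31. The 4 genes became 8 with only both groups fitted, 7 without a filter on low counts or with limma voom quality weights, and 2 with the share of reads outside genes as a covariate. Srebf2, which encodes SREBP2, was at 54.2, 65.2 and 75.3 CPM in control mice and at 29.6, 41.2 and 53.4 CPM with nilotinib. The groups did not overlap, and the log2 fold change was -0.68 ± 0.16 (edgeR adjusted p = 0.020; 14 of 16 fits, adjusted p = 0.054 without control mouse 7). For Dhcr7, the enzyme of the last reduction in the pathway, the value was -0.61 ± 0.22 (adjusted p = 0.15). Sqle, squalene epoxidase, varied widely within each group, from 8.46 to 47.6 CPM in control mice and from 4.51 to 33.8 CPM with nilotinib (-1.07 ± 0.42, adjusted p = 0.20).

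The windows before the start of these genes are shown for 4 members, because this list had the most members called between nilotinib and ponatinib (below). Srebf2 fell against control, Mvd differed most from ponatinib among the members with a window, and Hmgcs1 and Acat2 hold an exact match to the sterol element core. Each is the 250 bases before the RefSeq start on GRCm38.p6, 5′ to 3′ on the gene's strand, with capitals for the sterol element core CACCCCAC and the CCAAT box bound by NF-Y, a partner of SREBP, on either strand.
Srebf2 (chr15:82147019-82147268, plus strand): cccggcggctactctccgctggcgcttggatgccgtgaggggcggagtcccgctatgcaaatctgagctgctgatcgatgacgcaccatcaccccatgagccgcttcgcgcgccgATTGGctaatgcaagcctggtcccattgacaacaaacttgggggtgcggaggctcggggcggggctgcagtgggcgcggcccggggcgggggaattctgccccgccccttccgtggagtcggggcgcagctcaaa
Mvd (chr8:122443423-122443672, minus strand): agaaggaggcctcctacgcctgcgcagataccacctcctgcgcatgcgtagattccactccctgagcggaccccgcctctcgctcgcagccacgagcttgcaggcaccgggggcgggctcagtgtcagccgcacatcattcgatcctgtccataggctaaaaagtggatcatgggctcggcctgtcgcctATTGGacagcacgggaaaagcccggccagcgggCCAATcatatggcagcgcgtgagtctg
Hmgcs1 (chr13:119690101-119690350, plus strand): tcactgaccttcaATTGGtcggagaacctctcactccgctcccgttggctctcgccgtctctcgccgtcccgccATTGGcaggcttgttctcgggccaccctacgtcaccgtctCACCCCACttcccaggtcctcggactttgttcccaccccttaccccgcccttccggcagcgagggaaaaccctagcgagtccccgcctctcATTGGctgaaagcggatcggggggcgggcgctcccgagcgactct
Acat2 (chr17:12960726-12960975, minus strand): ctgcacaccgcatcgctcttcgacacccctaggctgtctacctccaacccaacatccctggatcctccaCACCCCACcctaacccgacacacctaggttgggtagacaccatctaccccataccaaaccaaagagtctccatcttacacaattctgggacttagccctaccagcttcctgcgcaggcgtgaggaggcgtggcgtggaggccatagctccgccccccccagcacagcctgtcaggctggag
Of the list, 22 genes had at least 1 window (28 windows in all). CCAAT or its complement ATTGG stood in 20 of these 28 windows and in 33.85% of all 32851 windows of the same length. CACCCCAC or its complement GTGGGGTG stood in 2 of the 28 and in 2.58% of all. Only Hmgcs1 held both, without overlap. A match is no evidence that a factor binds there. Only exact matches were searched for, so a window without a match can still hold a sterol element of other bases.

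Fatty acid synthesis genes were lower as well. Of 26 SREBP1c and lipogenesis genes, 8 were lower and 0 higher at p below 0.01 (30.8%, beside 5.69% of all genes). Their median log2 fold change was -0.24. The 8 became 6 with the share of reads outside genes as a covariate and 6 to 10 with 1 mouse left out. Scd1, stearoyl-CoA desaturase, was at 19500, 23600 and 33500 CPM in control mice and at 12100, 13100 and 25600 CPM with nilotinib. It was the only member past the adjusted p (-0.74 ± 0.19, adjusted p = 0.036), with 7 of 8 nilotinib mice below every control mouse, and it was called in 7 of 16 fits (adjusted p = 0.10 without control mouse 7). Acly, which makes cytosolic acetyl-CoA, was at 178, 448 and 849 CPM in control mice and at 102, 183 and 454 CPM with nilotinib (-1.30 ± 0.38, adjusted p = 0.063). Fasn, fatty acid synthase, was at 664, 1310 and 1980 CPM and at 390, 536 and 1390 CPM (-0.99 ± 0.32, adjusted p = 0.095). Both ranges overlapped, and neither gene passed. Gpam, the first enzyme of triglyceride assembly, differed by -1.14 ± 0.34 on the log2 scale (adjusted p = 0.072).

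**Figure D3:**
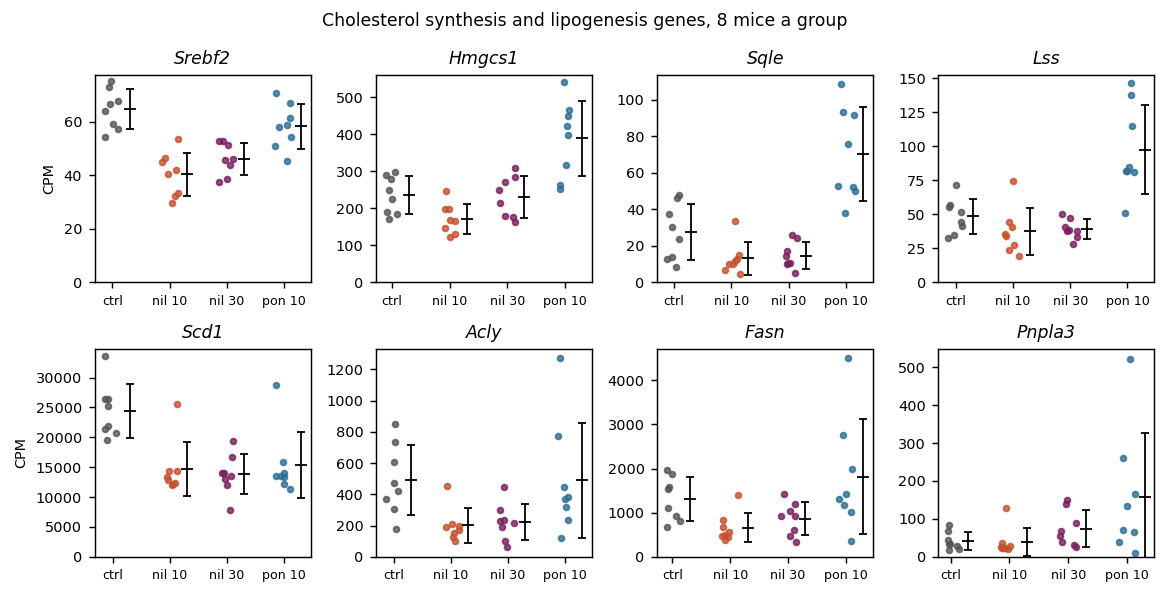
CPM of 8 genes of cholesterol synthesis and lipogenesis in control mice, nilotinib 10 and 30 mg/kg and ponatinib 10 mg/kg, with each mouse as a point and the mean and SD (n = 8) beside. Srebf2 lies below the control range in all nilotinib 10 mg/kg mice, and Sqle and Lss are highest with ponatinib.

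Among genes of lipoprotein handling the directions were mixed. Of 30 genes, 6 were higher and 1 lower at p below 0.01, and the median log2 fold change was 0.20. The 7 genes in either direction (23.3%, beside 5.69% of all genes) became 4 without nilotinib mouse 8, 12 with limma voom quality weights and 1 with the share of reads outside genes as a covariate. Apoc1, an apolipoprotein that inhibits lipoprotein clearance, was at 946, 1240 and 1660 CPM in control mice and at 1300, 1830 and 2710 CPM with nilotinib (0.57 ± 0.15, adjusted p = 0.047; 5 of 16 fits, adjusted p = 0.14 without nilotinib mouse 8). Lrp1, a hepatic remnant receptor with very long exons, was at 791, 1050 and 1510 CPM in control mice and at 575, 704 and 936 CPM with nilotinib (-0.55 ± 0.14, adjusted p = 0.036; 7 of 16 fits, adjusted p = 0.12 without control mouse 7). Both ranges overlapped. These mice also carry human APOC1, which was not counted here as a gene of its own. Apoa2 (0.53 ± 0.16), Apoc4 (0.50 ± 0.15) and Apoa1 (0.60 ± 0.19), apolipoproteins encoded by short genes, did not pass the adjusted p. Of 47 fatty acid oxidation genes under PPAR-alpha, 3 were higher and 1 lower at p below 0.01 and 0 passed the adjusted p. Fabp1, the liver fatty acid-binding protein, was at 1210, 1660 and 3030 CPM in control mice and at 1740, 2820 and 4340 CPM with nilotinib (0.72 ± 0.22, adjusted p = 0.071).

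Periportal genes were lower while pericentral genes were not. Of 24 periportal genes, 8 were lower and 1 higher at p below 0.01 and 3 fell, with a median log2 fold change of -0.29. Of 24 pericentral genes 0 had a p below 0.01, and their median was 0.02. The difference between the zones was not tested. Cps1, the first enzyme of the urea cycle, was at 2520, 3490 and 5010 CPM in control mice and at 1470, 2050 and 3080 CPM with nilotinib (-0.81 ± 0.22, adjusted p = 0.045; 5 of 16 fits, adjusted p = 0.11 without control mouse 7). Tat, tyrosine aminotransferase, was at 837, 943 and 1640 CPM and at 461, 564 and 839 CPM (-0.73 ± 0.19, adjusted p = 0.035; 10 of 16 fits, adjusted p = 0.083 without control mouse 2). In both genes 7 of 8 nilotinib mice lay below every control mouse. Pigr, the receptor that carries immunoglobulin A into bile, fell by 0.63 (SE 0.14, adjusted p = 0.019; 14 of 16 fits, adjusted p = 0.056 without control mouse 7). In either direction 9 periportal genes had a p below 0.01, 11 with the length trend removed and 5 without nilotinib mouse 1. Among 28 genes of gluconeogenesis and insulin response, 8 were lower and 1 higher at p below 0.01 (32.1%, beside 5.69% of all genes), and Tat and Pcx fell. These 9 became 4 with the share of reads outside genes as a covariate and 6 to 9 with 1 mouse left out. Pcx, pyruvate carboxylase, the entry step of gluconeogenesis, was at 655, 765 and 888 CPM in control mice and at 428, 544 and 629 CPM with nilotinib without overlap (-0.47 ± 0.11, adjusted p = 0.023; 14 of 16 fits, adjusted p = 0.054 without control mouse 7).

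**Figure D4:**
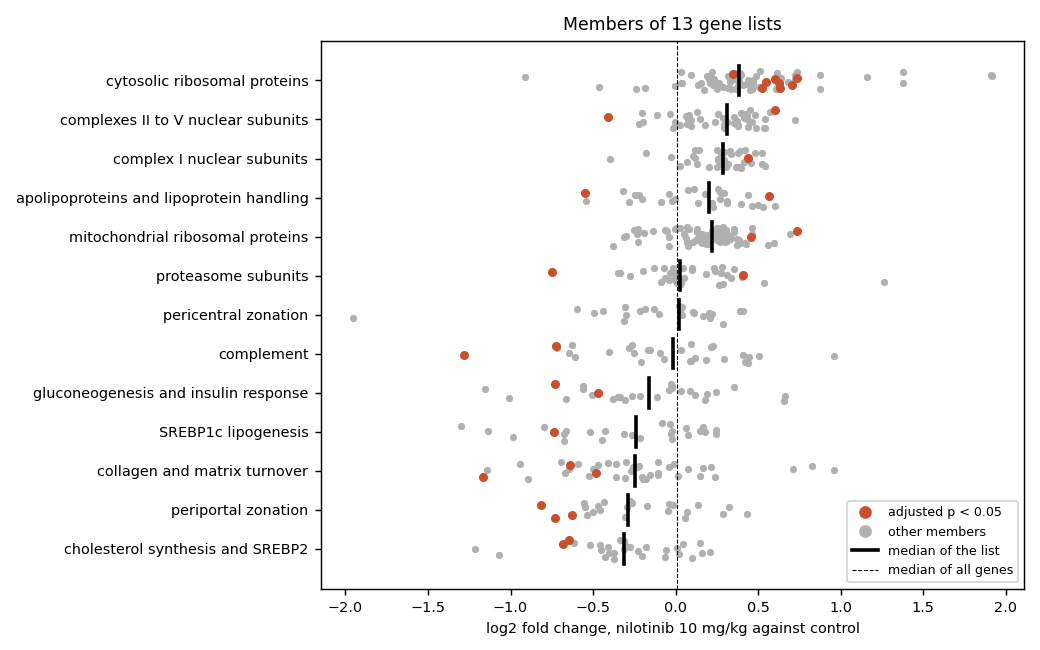
Log2 fold changes, nilotinib 10 mg/kg against control, of the members of 13 gene lists. Each point is a gene, filled in orange where the adjusted p is below 0.05, black bars are the medians and the dashed line is the median of all genes. The list medians run from -0.31 for cholesterol synthesis to 0.38 for ribosomal proteins.

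Several genes of secreted and matrix proteins fell. Of 30 complement genes, 4 were lower and 0 higher at p below 0.01 (13.3%, beside 5.69% of all genes), and Masp1 and C3 fell. With the share of reads outside genes as a covariate the 4 became 1. Masp1, a serine protease that starts the lectin pathway, was at 28.7, 53.9 and 110 CPM in control mice and at 14.1, 24.2 and 32.7 CPM with nilotinib (-1.28 ± 0.27, adjusted p = 0.011; 16 of 16 fits). C3, the central complement protein, was at 8060, 10800 and 12800 CPM and at 5180, 5960 and 8380 CPM (-0.72 ± 0.18, adjusted p = 0.036; 7 of 16 fits, adjusted p = 0.085 without control mouse 7). The ranges overlapped in both. Of 40 collagen and matrix genes, 3 fell and 0 rose, namely Fn1, fibronectin (-0.64 ± 0.15, adjusted p = 0.023), Col18a1 (-0.48 ± 0.12, adjusted p = 0.033) and Col15a1 (-1.17 ± 0.31, adjusted p = 0.044), a pair of basement membrane collagens. Fn1 went from 1610, 2120 and 3040 CPM to 1030, 1330 and 1890 CPM. They were called in 14, 10 and 4 of 16 fits, with adjusted p of 0.086, 0.086 and 0.099 without control mouse 7. By the adjusted p, 0.837% of all genes fell. These 3 were also the only matrix genes at p below 0.01, 7.5% of the list beside 5.69% of all genes in either direction. The median exon length of the list was 6211 bases, beside 4457 for all protein-coding genes tested. Of 38 proteasome subunits, Psmd1 fell (-0.75 ± 0.16, adjusted p = 0.011; 16 of 16 fits) and Psmd4 rose (0.41 ± 0.10, adjusted p = 0.027; 13 of 16 fits, adjusted p = 0.061 without nilotinib mouse 1).

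Of 34 targets of the xenobiotic receptors CAR and PXR, Ugt1a1, the enzyme that conjugates bilirubin, fell from 188, 295 and 361 CPM to 119, 169 and 193 CPM (-0.77 ± 0.21, adjusted p = 0.047; 3 of 16 fits, adjusted p = 0.10 without control mouse 7). Its 7 lowest nilotinib mice were below every control mouse. Nilotinib is known as an inhibitor of this enzyme. No gene of 17 uptake and efflux transporters had a p below 0.01. The lists of the circadian clock, the cell cycle, ATF4 targets, endoplasmic reticulum chaperones, cytosolic heat shock genes, NF-kappa-B and inflammatory cytokines, MHC class II and sex-biased liver genes also held 0 genes with a p below 0.01. In the lists of aryl hydrocarbon receptor and NRF2 targets, bile acid export, acute-phase proteins, metal handling, interferon-stimulated genes and the growth hormone axis 1 to 3 genes did, and 0 passed the adjusted p.

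Genes of the drug's known targets and of coagulation did not pass the adjusted p. Of 14 kinases and other proteins bound by nilotinib, 0 had a p below 0.01. Abl1 was at 33.1, 49.5 and 57.0 CPM in control mice and at 34.4, 41.5 and 47.0 CPM with nilotinib (-0.21 ± 0.13), and Kit, the stem cell factor receptor, at 5.33, 7.01 and 14.3 CPM and at 4.31, 11.8 and 17.5 CPM (0.51 ± 0.30). Csf1r, the macrophage growth factor receptor, had a log2 fold change of 0.07 ± 0.24. Both groups overlapped in all of these. Of 40 coagulation and fibrinolysis genes, 1 was higher and 2 lower at p below 0.01, and 0 passed the adjusted p. At p below 0.01 this is 7.5% of the list, near the 5.69% of all genes. F5, factor V, was at 429, 508 and 584 CPM in control mice and at 383, 425 and 595 CPM with nilotinib (-0.20 ± 0.10, adjusted p = 0.37). F9, factor IX, was at 184, 212 and 259 CPM and at 129, 173 and 230 CPM (-0.33 ± 0.14, adjusted p = 0.24). F7, factor VII, differed by -0.01 ± 0.17 on the log2 scale and Pros1, the anticoagulant protein S, by -0.21 ± 0.15. The Serpina1 paralogs, which encode the protease inhibitor alpha-1 antitrypsin and share much of their sequence, had values between 0.06 ± 0.14 for Serpina1d and 0.70 ± 0.55 for Serpina1e, and Serpina1a had 0.35 ± 0.13 (adjusted p = 0.15). The lowest p of the list was that of Serpind1, heparin cofactor II (-0.35 ± 0.11, adjusted p = 0.095).

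Markers of the cells of the liver gave no call outside hepatocytes. In bulk tissue, fewer cells of a type and less RNA per cell cannot be told apart. The 12 hepatocyte markers summed to 81180 to 148200 CPM in control mice and to 80610 to 121900 CPM with nilotinib, and the 2 that fell were Cps1 and Tat. The 15 Kupffer cell markers summed to 1216 to 2209 CPM in control mice and to 1530 to 2610 CPM with nilotinib. Of these resident macrophage genes, Folr2 (0.76 ± 0.25), Clec4f (0.56 ± 0.19) and Fcna (0.61 ± 0.22) had unadjusted p below 0.01 and adjusted p of 0.099, 0.13 and 0.15. They are 20% of the list, beside 2.22% of all genes that were higher at an unadjusted p below 0.01. Sinusoidal endothelial markers summed to 362 to 1098 CPM and to 700 to 836 CPM, and stellate cell markers to 629 to 953 CPM and to 738 to 1024 CPM. Monocyte-derived macrophage markers summed to 293 to 998 CPM and to 417 to 1486 CPM. Log2 fold changes were above 0 in 14 of 15 Kupffer cell, 16 of 18 sinusoidal endothelial and 13 of 15 stellate cell markers. The same held for 12 of 13 monocyte-derived macrophage and 9 of 9 B and plasma cell markers, but 6 of 12 hepatocyte markers. It held for 7 of 11 T and NK cell, 4 of 7 cholangiocyte and 4 of 6 erythrocyte markers. In the smallest lists it held for 2 of 3 neutrophil, 2 of 2 adipocyte and 1 of 1 exocrine pancreas markers. The median over all genes was 0.01, and the share of all genes above 0 was not counted. A shift in cell make-up was not tested. The ranges of every list overlapped between the groups, and 1 of 13 exocrine pancreas markers passed the filter on low counts, at 0 to 4.49 CPM in nilotinib mice.

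The 2 doses of nilotinib were compared directly. An unadjusted p below 0.01 was found for 171 genes (1.21%) between the doses, where 141 pass by chance, and 0 had an adjusted p below 0.05 by edgeR, against 2 by DESeq2. A count of 0 does not show that the doses act alike. Some genes stood at like levels at both doses, such as Slc26a1, at 112, 143 and 187 CPM, a log2 difference of 0.06 ± 0.13 (SE) from the low dose. Srebf2 was at 37.3, 45.9 and 52.9 CPM at the high dose (0.19 ± 0.16) and Scd1 at 7860, 13800 and 19500 CPM (-0.08 ± 0.19). The ranges of both doses overlapped for these genes. Fads6 had a log2 difference of -0.31 ± 0.12 and F5 of -0.28 ± 0.10, with adjusted p of 0.84 and 0.79. Some other genes called at 10 mg/kg against control lay nearer to control at the high dose. Choosing genes by that call by itself favors values far from control at 10 mg/kg, so no dose pattern is read from them. Paxbp1 was at 16.7, 23.1 and 33.8 CPM at 30 mg/kg, against a median of 34.5 CPM at 10 mg/kg and 20.7 CPM in control mice (log2 difference between the doses -0.55 ± 0.18, adjusted p = 0.69). Col15a1 was at 4.87, 12.4 and 14.8 CPM (0.59 ± 0.31, adjusted p = 0.93) and Armh3 at 3.26, 6.63 and 8.71 CPM (0.76 ± 0.34, adjusted p = 0.87).

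Nilotinib differed from ponatinib, an inhibitor of the third generation, at the same dose by weight of 10 mg/kg. Equal weight is not equal exposure, and the groups were not matched for drug levels in plasma. The paper reports exposures similar to those of patients for the low dose of each of these drugs. The ponatinib dose compared here was the higher of those given and the nilotinib dose the lower. The part of exposure in the differences below was not tested. By edgeR's adjusted p, 272 genes (1.93%) differed, 137 higher with nilotinib (0.972%) and 135 lower (0.958%). When only these groups were fitted the count was 48, and it fell to 93 without nilotinib mouse 6 and rose to 480 without ponatinib mouse 4, which was also the ponatinib mouse with the lowest value of the length measure above (-0.21, against 0.32 to 0.49 in the others). The clearest group was cholesterol synthesis, of which 18 of 30 genes were lower with nilotinib than with ponatinib and 0 higher, with a median log2 fold change of -0.90 beside -0.01 over all genes. The count was 14 with only these groups in the fit and 13 without nilotinib mouse 6. Sqle was at 4.51, 11.1 and 33.8 CPM with nilotinib and at 38.2, 64.3 and 109 CPM with ponatinib, without overlap (-2.42 ± 0.43, adjusted p = 0.0017). Lss, lanosterol synthase, was at 19.7, 35.2 and 74.2 CPM with nilotinib and at 51.3, 83.5 and 146 CPM with ponatinib (-1.37 ± 0.25, adjusted p = 0.0017). Mvd, an early enzyme of the mevalonate pathway, was at 4.64, 13.7 and 37.3 CPM and at 26.9, 38.4 and 110 CPM (-1.79 ± 0.34, adjusted p = 0.0029). The ranges of Lss and Mvd overlapped, and all of these stayed past the threshold in 16 of 16 fits that left out 1 mouse. Hmgcs1 (-1.18 ± 0.23) and Insig1, which retains SREBP in the endoplasmic reticulum (-1.10), were lower too. Srebf2 did not pass (-0.53 ± 0.16, adjusted p = 0.062). Of the 174 genes called against control, 0 were among the 272 that differed between the drugs. The 74 ribosomal protein genes likewise held 0 that differed. These counts do not show that the drugs act alike on those genes.

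**Figure D5:**
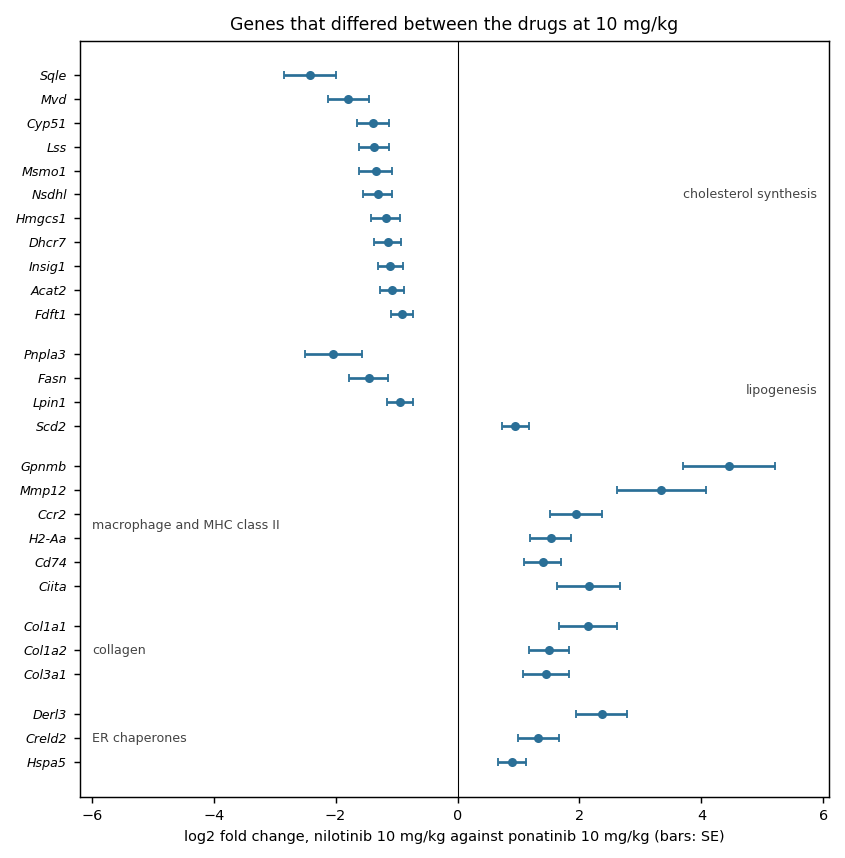
Log2 fold change, nilotinib 10 mg/kg against ponatinib 10 mg/kg, of a selection of list members that differed by the adjusted p, with bars for the SE. Values below 0 are lower with nilotinib. Sqle stands lowest at -2.42 and Gpnmb highest at 4.45.

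Of 26 lipogenesis genes 6 were lower with nilotinib than with ponatinib and 1 was higher, a count that was 0 in both directions with only these groups in the fit. Over all genes tested, 0.958% were lower and 0.972% higher with nilotinib by the adjusted p. The 6 became 3 with the share of reads outside genes as a covariate. With 1 mouse left out they became 3 without ponatinib mouse 3, 4 without ponatinib mouse 8 or nilotinib mouse 3, 5 or 6, 11 without nilotinib mouse 2 and 12 without ponatinib mouse 2. Fasn was at 390, 536 and 1390 CPM with nilotinib and at 350, 1370 and 4510 CPM with ponatinib, overlapping (-1.46 ± 0.32, adjusted p = 0.0090; -1.12 without ponatinib mouse 4, which still passed at 0.029). Pnpla3, a lipid droplet lipase, was at 21.2, 24.4 and 130 CPM and at 10.6, 102 and 522 CPM (-2.04 ± 0.46, adjusted p = 0.013; 0.075 without ponatinib mouse 3). The ponatinib mice spread widely for both. The acute-phase genes Saa2 and Saa1 were lower with nilotinib in the fit (-4.56 ± 1.06 and -3.76 ± 0.93), but this rested on ponatinib mouse 2: Saa2 reached 13300 CPM in the highest ponatinib mouse while the medians were 74.3 CPM with nilotinib and 36.8 CPM with ponatinib, and without that mouse the log2 differences were 1.16 and 1.18 (adjusted p = 0.38 and 0.28). Orm2, another acute-phase gene, went from -2.86 to -0.35 (adjusted p = 0.81) without it.

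Some genes of macrophages, antigen presentation and matrix were higher with nilotinib than with ponatinib, in numbers that depended on the fit. Over all genes tested, 0.972% were higher with nilotinib by the adjusted p, the share to set beside the counts below. Of 13 markers of monocyte-derived macrophages 3 were higher, namely Gpnmb, Mmp12 and Ccr2, and 0 by limma voom with or without quality weights. Gpnmb, a glycoprotein of lipid-laden macrophages, was at 13.3, 63.7 and 331 CPM with nilotinib and at 0.582, 3.88 and 12.9 CPM with ponatinib, without overlap (4.45 ± 0.75, adjusted p = 0.0014; 16 of 16 fits). Mmp12, macrophage elastase, was at 3.07, 42.6 and 178 CPM and at 0.146, 7.27 and 15.2 CPM, overlapping (3.34 ± 0.73, adjusted p = 0.0088; 16 of 16 fits). Control mice had 8.75, 91.3 and 258 CPM of Gpnmb, a range that held 7 of the 8 nilotinib mice (nilotinib against control 0.05 ± 0.62). Of 13 MHC class II genes 5 were higher with nilotinib, among them H2-Aa, at 56.3, 111 and 339 CPM against 26.3, 44.7 and 78.2 CPM (1.53 ± 0.34, adjusted p = 0.0090; 0.059 without nilotinib mouse 6). Of 40 collagen and matrix genes 7 were higher, among them Col1a1, at 28.1, 46.1 and 204 CPM against 6.48, 11.5 and 25.9 CPM without overlap (2.13 ± 0.48, adjusted p = 0.011; 0.073 without nilotinib mouse 6). Without that mouse 1 of the MHC class II genes and 1 of the matrix genes still passed. The 5 MHC class II genes became 3 with quality weights or with the covariate. The 7 matrix genes became 3 with only these groups, with quality weights or without nilotinib mouse 5, 4 without ponatinib mouse 7 and 2 with the covariate. Monocyte-derived macrophage markers summed to 417 to 1486 CPM with nilotinib and to 231 to 717 CPM with ponatinib, and their part in these differences was not tested. Of 26 endoplasmic reticulum chaperone genes 5 were higher, led by Derl3, which removes misfolded proteins, at 43.7, 64.1 and 107 CPM against 3.08, 13.2 and 25.1 CPM without overlap (2.36 ± 0.41, adjusted p = 0.0014; 16 of 16 fits). The 5 became 1 without nilotinib mouse 4 or 6 or ponatinib mouse 1 and 1 with the covariate, 2 without nilotinib mouse 5, 3 without ponatinib mouse 6, 7 or 8 and 3 with only these groups. Without ponatinib mouse 2 or 4 they became 9 or 8. Against control, the median log2 fold changes with nilotinib were 0.26 for monocyte-derived macrophage markers, 0.17 for MHC class II, -0.25 for matrix and -0.05 for chaperone genes. Against ponatinib the medians of these lists were 1.32, 0.98, 0.63 and 0.45. In these lists 0 genes rose against control by the adjusted p. Ponatinib was not tested against control here. Kit was the only one of the 14 drug targets that differed between the drugs (1.10 ± 0.31, adjusted p = 0.041).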

How the data were processed

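Liver RNA of 56 mice was extracted with RNA-Bee, selected for poly(A) and prepared with a NEBNext Ultra kit. The authors deposited raw read counts per gene for each mouse. The submitters' processing notes name TopHat2 2.0.14, Bowtie2 2.1.0, SAMtools 0.1.18 and HTSeq 0.6.1p1 with GRCm38. Reads with more than 1 alignment were counted on no gene, and the strand setting is not given in the sources used here, so overlapping and antisense genes cannot be told apart. Of 45513 gene identifiers, 44671 had a symbol in GENCODE M21. Lines of reads outside genes were left out of library sizes and tests.

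Counts were scaled by TMM and filtered with filterByExpr (edgeR 4.0.16, R 4.3.3). The edgeR quasi-likelihood test was fitted to 48 mice of 6 groups, without the L-NAME mice, and p-values were adjusted by the Benjamini-Hochberg method over 14090 genes. The labels give no batch and replicate numbers were given in record order, so no pairing was used. DESeq2 1.42.0, limma 3.58.1 and other scalings, filters and sample sets were alternatives. The procedure was tested on simulated data. Shares were compared by an exact permutation test.

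Genes were named by rule: the 12 of lowest p and the 5 of largest change in each direction, with an adjusted p below 0.05, a mean of at least 1 CPM and no pseudogene or provisional symbol, the called members of each list and up to 4 of lowest p in lists described, nilotinib's target kinases, and clotting genes. Genes outside it are named as such, and a few genes of the rule are not reported here. The members and lists were chosen with earlier results of these data known. Promoter windows came from RefSeq (GRCm38.p6).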

Additional observations from a re-analysis of the deposited data

Results flagged for a closer look

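Among the genes of lowest p or largest change and the library measures, 66 groups of 8 mice were examined for a mouse apart from the rest, and chance sets 1 mouse apart in about 1 of 20 groups. Among control mice, the highest stood apart for Sem1 (mouse 3, 39.6 CPM), Trim7 (mouse 1, 17.28 CPM), Slc26a1 (mouse 7, 267.9 CPM), Palld (mouse 1, 56.39 CPM), Aco1 (mouse 3, 349.4 CPM) and Abca3 (mouse 7, 236.8 CPM). Among nilotinib mice, mouse 1 had the fewest reads counted on genes (5342379) and the highest Peg3 (29.99 CPM) and Mrps26 (46.15 CPM). Nilotinib mouse 6 had the highest Tnrc18 (37.77 CPM) and the lowest Acss3 (3.445 CPM). Separately, nilotinib and ponatinib at 10 mg/kg differed in 272 genes by edgeR's adjusted p, a direct test between these groups. Their doses were equal by weight but not matched for drug exposure.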

How the results depend on the processing

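The 58 genes of the rule kept their direction under every alternative that gave a value, which DESeq2 did for 52 of them, and 20 were called in each fit without 1 mouse. The 802 genes with an unadjusted p below 0.01 became 1521 without a filter on low counts, 1655 with limma voom quality weights and 402 with the share of reads outside genes as a covariate, and 629 to 895 with 1 mouse left out. The 174 genes past the adjusted p became 488 with DESeq2, 314 with limma voom, 1208 with quality weights, 286 with only both groups fitted and 0 with the covariate. With 1 mouse left out they ranged from 48 to 245, and fell to 112, 104, 48 and 79 without control mouse 1, 5, 7 or 8 and to 77, 97, 79 and 71 without nilotinib mouse 1, 5, 7 or 8. Scaling by upper quartile gave 72 risen and 98 fallen genes. For the doses, the count of 0 became 2 with DESeq2 and 0 to 1 with 1 mouse left out. Against ponatinib, the 272 genes became 498 with DESeq2, 48 with only these groups and 85 with the covariate, and 93 to 480 with 1 mouse left out, with 177, 131 and 93 without nilotinib mouse 4, 5 or 6 and 166, 480 and 160 without ponatinib mouse 3, 4 or 8. The share of reads outside genes differed by 1.62 to 1.90 percentage points with 1 mouse left out and by 1.78 with ambiguous reads in the denominator. The cause of these shifts was not tested, and the lower depth of the nilotinib mice limits the low-count genes.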
